A study of Mus musculus with 11 samples.

Results

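Troglitazone was compared with rosiglitazone in 3T3-L1 cells, a mouse fibroblast line that can be turned into adipocytes in culture. The 6 arrays of these drugs were taken by their sample titles, out of 11 arrays in the series, and the comparison ran over all non-control probe sets. Cells were exposed for 24 h to 20 µM troglitazone (3 arrays), 1 µM rosiglitazone (3 arrays), 20 µM pioglitazone (2 arrays) or vehicle, 0.1% DMSO (3 arrays). The labels give no genotype, no differentiation stage and no statement that replicates were separate cultures, so p-values measure only the spread between these samples, which may be technical. The titles place replicates 1 and 2 of every group in set 1, and replicate 4 of troglitazone, rosiglitazone and vehicle in set 2. Troglitazone and rosiglitazone therefore hold the same number of arrays in each set. Their doses were 20 and 1 µM, so the compound and its dose cannot be told apart in any difference given here.

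Thiazolidinediones bind PPARγ, a nuclear receptor that pairs with RXR and switches on genes of lipid uptake, lipid storage and adipocyte differentiation. All of these drugs share the thiazolidinedione ring; troglitazone carries a chroman group like that of vitamin E at the other end of the molecule, and rosiglitazone a pyridine-containing group. The integrated stress response is a separate programme, in which phosphorylation of the initiation factor eIF2α raises translation of the transcription factor ATF4, and ATF4 with its partners induces Ddit3 (CHOP), Trib3 and genes of amino acid supply. Metallothioneins are small cysteine-rich proteins that bind zinc and other metals, and the zinc-sensing factor MTF-1 induces them through metal response elements in their promoters.

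Signals were linear intensities scaled by the authors to a common trimmed mean. Of 12422 non-control probe sets, 11739 exceeded a floor of 73.7 on at least 2 arrays and were tested, and 10261 of these named 1 gene, 7962 genes in all. Correlations of log2 signal between pairs of the 6 arrays ran from 0.832 to 0.945. Replicate 2 of rosiglitazone was the least like the other arrays, at a median correlation of 0.833, and without it the lowest correlation among the drugs' arrays was 0.874. The beta-actin 3′ to 5′ ratio, a sign of RNA quality, was 1.79 to 3.79 on troglitazone arrays and 2.09 to 3.74 on rosiglitazone arrays, with the high values in set 2 of both. Adipocyte markers were bright in both groups, with summed signals over 8 markers of 82198 to 111269 on troglitazone arrays and 99275 to 136231 on rosiglitazone arrays. The summed signal of 7 preadipocyte or fibroblast markers was lower with troglitazone and did not overlap, at 3554 to 4473 on troglitazone arrays and 4527 to 5072 on rosiglitazone arrays. Its members did not all go that way. The log2 difference, troglitazone minus rosiglitazone, was 0.97 for Thy1 and 0.95 for Pdgfra, and negative for the other markers of this list. None of the markers passed the test. The marker Cdh5, of endothelium, was at the floor on all arrays.

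Few transcripts separated the drugs. Troglitazone gave higher signals than rosiglitazone for 6 genes: the metallothioneins Mt2 and Mt1, the stress response genes Trib3 and Ddit3, the endoplasmic reticulum oxidase gene Ero1a and the cholesterol transport gene Npc1. The differences were between 1.92-fold and 2.76-fold. No gene passed the test as lower with troglitazone. In limma with Benjamini-Hochberg adjustment over all tested probe sets, 7 probe sets passed at an adjusted p under 0.05 as higher (0.0596% of those tested) and 0 as lower (0%). At an unadjusted p under 0.05 there were 409 higher and 424 lower. Counted by gene, with the brightest probe set of each, the 6 were 0.0754% of the genes tested. By gene, 307 of 7962 were higher and 283 lower at an unadjusted p under 0.05.

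**Figure D1:**
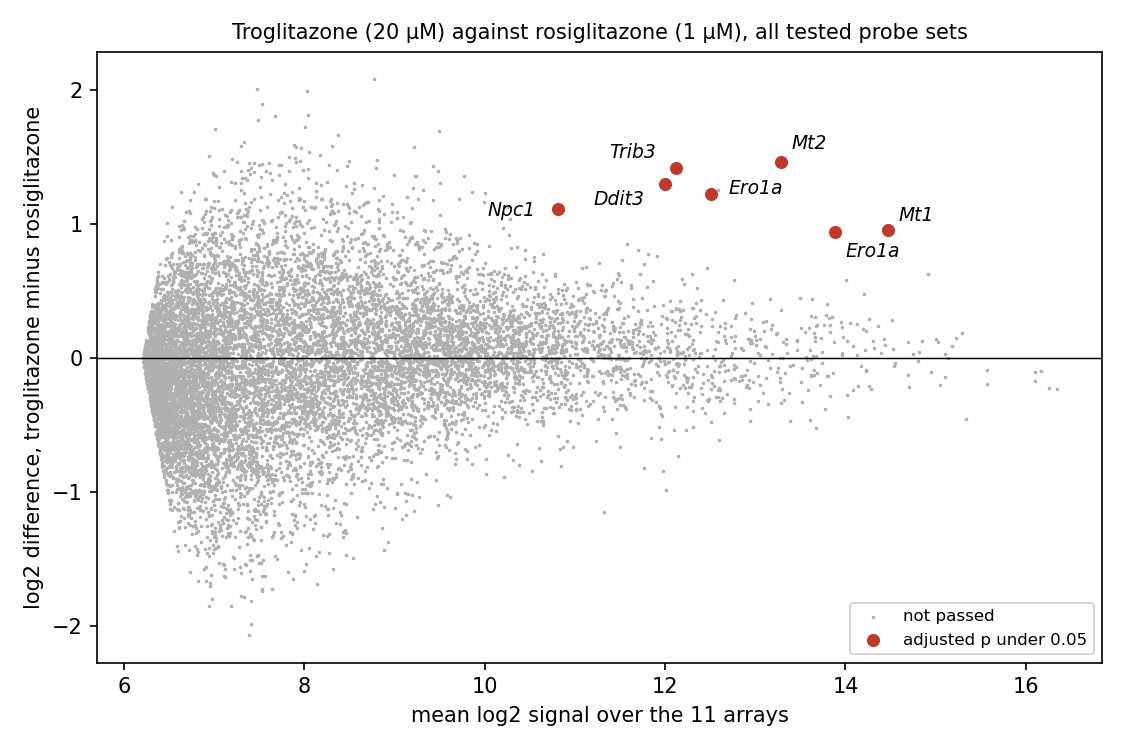
Log2 difference, troglitazone minus rosiglitazone, against mean log2 signal over the 11 arrays, 1 point for each of 11739 tested probe sets. The 7 probe sets that passed (red) lie at 0.94 to 1.47 on the log2 scale, at high mean signals, and spread between probe sets widens toward low signals.

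The precision over all tested probe sets set what could be seen. The median half-width of the 95% interval was 0.90 on the log2 scale, with quartiles of 0.61 and 1.19. For 4107 probe sets (35% of those tested) the whole interval lay within 2-fold in either direction. The remaining probe sets, the 7 that passed among them, had intervals that reached a 2-fold difference or more. A difference of that size was therefore not excluded there, and for 3 of them the whole interval lay beyond 2-fold. A test of whether the drug difference itself changed between sets called 0 probe sets in limma, with 311 at an unadjusted p under 0.05; it rests on 1 array of each drug in set 2.

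Each drug was also set against vehicle in the same fit. Troglitazone changed 156 probe sets (1.33% of those tested), rosiglitazone 159 (1.35%) and pioglitazone 106 (0.903%), with 2 arrays in the pioglitazone group. Of the 156 probe sets, 91 rose and 65 fell with troglitazone, and of the 159, 92 rose and 67 fell with rosiglitazone. These comparisons share the vehicle arrays, so their values are given side by side below and nothing is tested between them.

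The metallothioneins gave the smallest p-value of the comparison. Mt2 had signals of 15802, 20830 and 23111 on troglitazone replicates 1, 2 and 4, against 6544, 5835 and 9432 on the same replicates of rosiglitazone. Every troglitazone array lay above every rosiglitazone array, in both sets. Mt2 was 2.76-fold higher, a log2 difference of 1.47 ± 0.13 (SE) with a 95% interval of 1.18 to 1.75 (limma, adjusted p = 0.000172), and the log2 difference was 1.55 in set 1 and 1.29 in set 2. Mt1 had signals of 34327, 36411 and 34166 with troglitazone, against 17631, 17109 and 19262 with rosiglitazone, again without overlap. Its log2 difference was 0.96 ± 0.14 (SE), or 1.94-fold (limma, adjusted p = 0.0116).

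Against vehicle, both genes moved with troglitazone and not with rosiglitazone at this threshold. Vehicle arrays had Mt2 signals of 7663, 7439 and 9093, within the range of the rosiglitazone arrays. The log2 difference of Mt2 from vehicle was 1.29 with troglitazone (limma, adjusted p = 6.13e-05) and -0.18 with rosiglitazone (adjusted p = 0.694). For Mt1 these were 0.89 with troglitazone (limma, adjusted p = 0.00205) and -0.07 with rosiglitazone (adjusted p = 0.904). Pioglitazone at 20 µM gave log2 differences from vehicle of 0.18 for Mt2 and 0.30 for Mt1, neither of which passed.

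The other 6 tested genes of the metallothionein and zinc list did not pass, and their log2 differences ran from -0.69 to 0.20. They include Mt3, a metallothionein best known from brain, at -0.25 (95% interval -1.12 to 0.62), and Mt4, known from stratified epithelia, at -0.19 (95% interval -1.32 to 0.94). The median over the list's 8 tested genes was -0.04, beside -0.01 over all tested genes. All troglitazone arrays lay above all rosiglitazone arrays for 2 of the 8, the same pair that passed, against 4.67% of all genes tested. List medians were computed for the alternatives of normalisation, floor and filter and for the fits without 1 array. This list's median changed sign in 4 of them, so only the values of Mt2 and Mt1 are used from this list.

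Because Mt2 and Mt1 moved together and lie beside each other on chromosome 8, the 250 bases before each start site are shown, from RefSeq (GRCm38.p6), in lower case with matches to the metal response element core in capitals. The core was searched as TGCACNC and TGCGCNC on both strands. Mt2 is chr8:94172368-94172617 and Mt1 is chr8:94178839-94179088, both on the plus strand.
Mt2: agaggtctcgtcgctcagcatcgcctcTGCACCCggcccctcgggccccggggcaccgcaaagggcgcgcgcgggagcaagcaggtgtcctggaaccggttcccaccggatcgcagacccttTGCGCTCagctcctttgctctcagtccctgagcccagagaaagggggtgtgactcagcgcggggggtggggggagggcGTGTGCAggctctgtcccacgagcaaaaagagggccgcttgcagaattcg
Mt1: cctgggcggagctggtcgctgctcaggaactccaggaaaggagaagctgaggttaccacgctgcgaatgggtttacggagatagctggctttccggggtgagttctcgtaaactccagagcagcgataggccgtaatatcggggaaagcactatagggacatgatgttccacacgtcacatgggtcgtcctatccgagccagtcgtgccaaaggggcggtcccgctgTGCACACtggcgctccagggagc
Mt2 held 3 matches in these bases and 4 in the whole window of 300 bases, which runs 50 bases past the start. Mt1 held 1 before the start and 3 in the whole window, the others at 2 and 20 bases past the annotated start. These counts depend on where the start is annotated and do not cover elements outside the window. Matches were not particular to this pair, as 6 of the 8 genes of the metallothionein and zinc list held at least 1. In the whole window Slc30a4 held 3, Slc30a1 2, and Mt3 and Mt4 1 each, and none of these genes passed. Of 32851 promoter windows, 25.7% held at least 1 match, 1.97% at least 3 and 0.517% at least 4. A match is a string of letters and was not tested as a binding site.

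**Figure D2:**
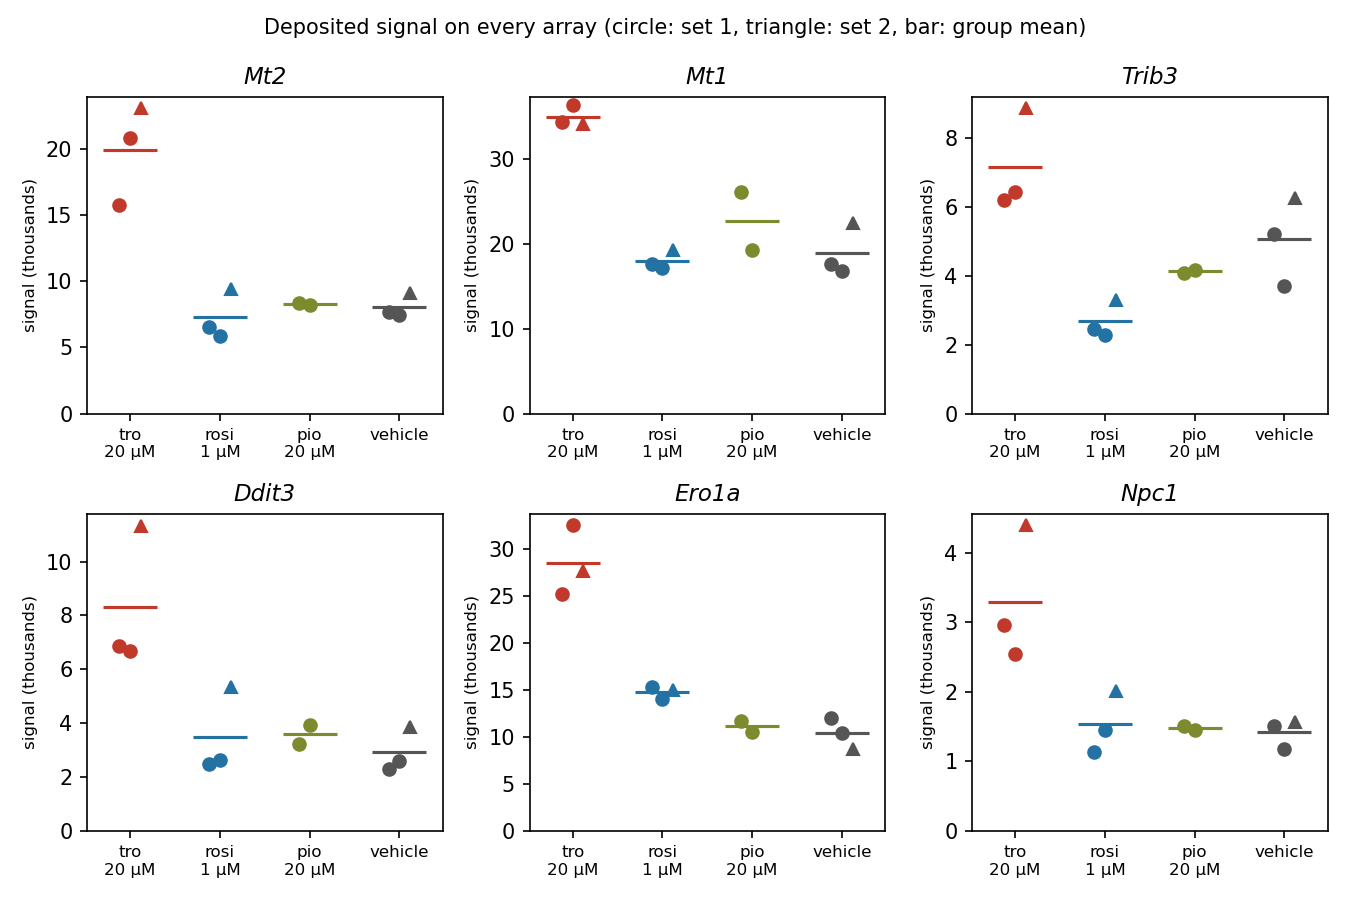
Deposited signal of the 6 genes that passed, on each array of troglitazone, rosiglitazone, pioglitazone and vehicle (circles set 1, triangles set 2, bars group means). The 3 troglitazone arrays lie above the 3 rosiglitazone arrays in every panel, and for Trib3 the rosiglitazone arrays (2285 to 3306) also lie below the vehicle arrays (3702 to 6268).

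The integrated stress response held 2 of the 6 genes, Trib3 and Ddit3. Trib3 encodes a pseudokinase that binds ATF4 and the insulin-signalling kinase Akt. It had signals of 6208, 6423 and 8880 on troglitazone replicates 1, 2 and 4, against 2458, 2285 and 3306 on the rosiglitazone replicates. The groups did not overlap, and the log2 difference was 1.42 ± 0.14 (SE), or 2.67-fold (limma, adjusted p = 0.000292), at 1.41 in set 1 and 1.43 in set 2. Against vehicle, with signals of 5206, 3702 and 6268, troglitazone stood at a log2 difference of 0.52, which did not pass (limma, adjusted p = 0.116). Trib3 fell by 0.90 on the log2 scale with rosiglitazone against vehicle (limma, adjusted p = 0.0034). Pioglitazone stood at -0.09 from vehicle (limma, adjusted p = 0.933).

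Ddit3 encodes CHOP, a C/EBP-family factor that pairs with C/EBPα and C/EBPβ and limits their action in adipogenesis. Its signals were 6870, 6685 and 11342 with troglitazone, against 2486, 2633 and 5348 with rosiglitazone. All troglitazone arrays were above all rosiglitazone arrays, and the replicate 4 arrays of set 2 were the highest of both drugs. The log2 difference was 1.30 ± 0.14 (SE), or 2.46-fold (limma, adjusted p = 0.000625). Against vehicle, Ddit3 rose by 1.5 on the log2 scale with troglitazone (limma, adjusted p = 3.05e-05), with rosiglitazone at 0.21 (adjusted p = 0.656) and pioglitazone at 0.61 (adjusted p = 0.124).

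Most of the other stress response genes leaned the same way without passing. Of 24 listed genes 19 were tested. Between the drugs, 2 passed as higher with troglitazone and 0 as lower, beside 6 and 0 of all 7962 genes. Of the 19, 14 had a positive difference, with a median of 0.37 beside -0.01 for all genes. For 9 of the 19 (47.4%) every troglitazone array lay above every rosiglitazone array, where 4.67% of all genes did so, and for 0 every array lay below, where 3.53% of all genes did so. Ppp1r15a (GADD34), the subunit that directs dephosphorylation of eIF2α, had signals of 1746, 2456 and 2628 with troglitazone, against 904, 929 and 1040 with rosiglitazone. The groups did not overlap, yet the log2 difference of 1.23 ± 0.22 (SE) missed the threshold (limma, adjusted p = 0.0886). Against vehicle it rose by 2.06 with troglitazone (limma, adjusted p = 0.000104), with rosiglitazone at 0.83 (adjusted p = 0.103).

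Gadd45a, a growth arrest and DNA damage gene, stood at 1.08 (limma, adjusted p = 0.0923), and Ddit4, whose product restrains mTORC1, at 1.31 with a wide 95% interval of 0.59 to 2.03 (adjusted p = 0.471). Genes outside this list also came near the threshold. Tcf12 stood at 1.44 (limma, adjusted p = 0.0923) and Mmp11 at 0.97 (adjusted p = 0.112), both without overlap between the drugs. Atf4 itself had signals of 11491, 11651 and 14025 with troglitazone, against 8664, 8376 and 10319 with rosiglitazone. These did not overlap, and the log2 difference was 0.44, with a 95% interval of 0.20 to 0.69 (limma, adjusted p = 0.471). Herpud1, of endoplasmic reticulum protein degradation, stood at 1.58, with an interval from 0.43 to 2.72 (limma, adjusted p = 0.624). Its rosiglitazone signals were 736, 94.7 and 410, and without replicate 2 of rosiglitazone the difference was 0.70. Ndrg1 stood at 1.14 for its brighter probe set (0.65 to 1.43 without 1 array) and at 1.81 for another, whose troglitazone arrays lay above all rosiglitazone arrays (limma, adjusted p = 0.59). Atf3 stood at 0.72, Nupr1 at 0.37, Cebpb at 0.28 and Atf5 at -0.19 (-0.02 without replicate 2 of rosiglitazone), and none of these passed. The remaining tested members did not pass either. Eif2ak3, an eIF2α kinase gene, stood at -0.63, Gadd45b at -0.16, Stc2 at -0.05 and Eif4ebp1 at -0.02. Slc7a11 stood at 0.15, Vldlr at 0.26 and Cebpg at 0.28.

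**Figure D3:**
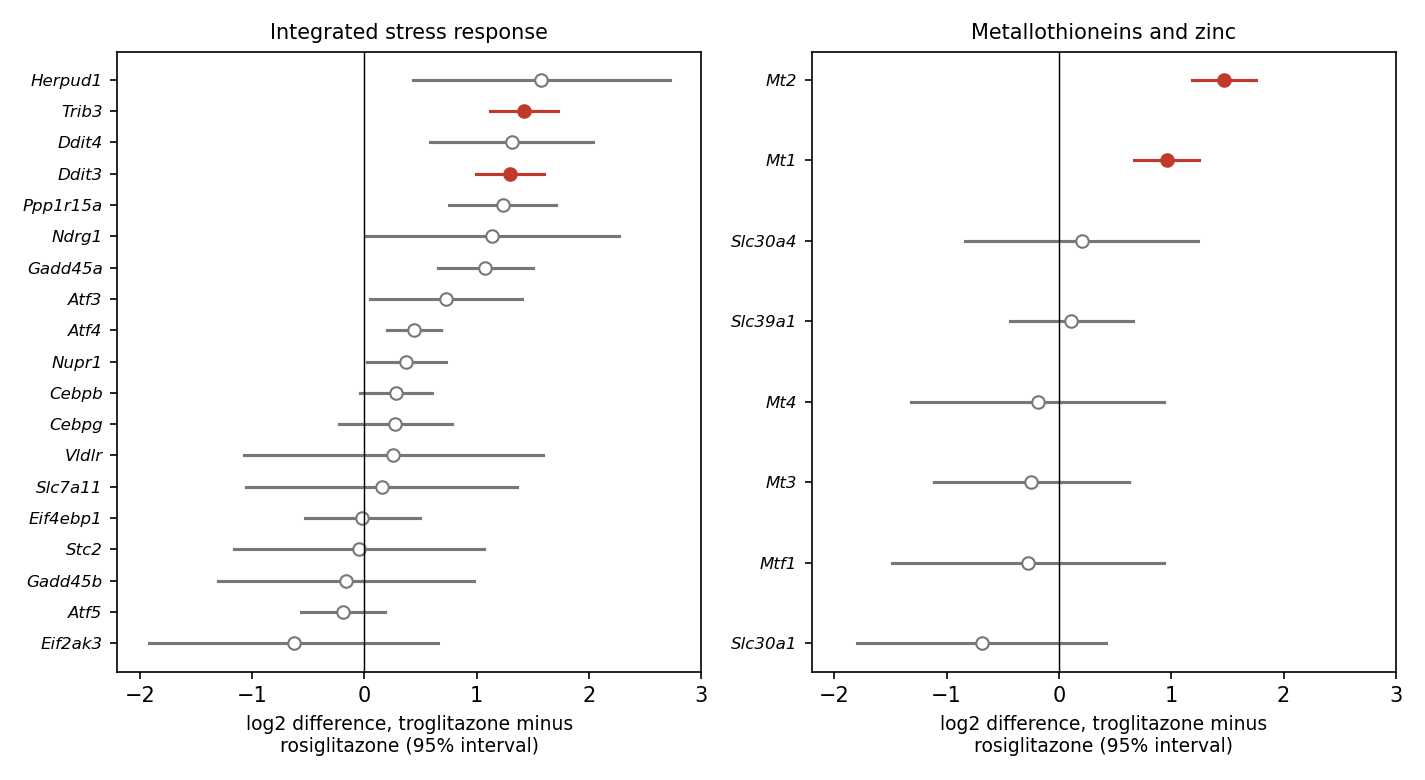
Log2 difference, troglitazone minus rosiglitazone, with its 95% interval for each tested gene of the integrated stress response (19 genes) and of metallothioneins and zinc (8 genes). Filled red points passed at an adjusted p under 0.05: Trib3, Ddit3, Mt2 and Mt1.

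Of the 17 stress response genes with a promoter in the RefSeq table, 6 held a match to the C/EBP-ATF composite element, Trib3 among them. The element was searched as TGATGNAA and TTGCATCA on both strands in 300 bases around the start site. The second string is contained in the first when read on the other strand. Of all promoter windows, 3.97% held a match, whereas a gene was counted if any of its windows held one. The Trib3 match was to TGATGNAA alone and lay 14 bases past the start. No match was tested as a binding site. The other genes with a match were Atf3, Herpud1, Nupr1, Slc7a11 and Vldlr; the Ddit3 window held none, which says nothing of sites elsewhere.

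Genes of amino acid supply, many of which ATF4 is known to induce, had small positive differences. Of 25 tested genes, 22 were positive and 0 passed in limma. At an unadjusted p under 0.05, 3 of the 25 were higher and 0 lower, beside 307 higher and 283 lower of all 7962 genes. The median was 0.27. All troglitazone arrays lay above all rosiglitazone arrays for 5 of the 25 (20%, against 4.67% of all genes) and below them for 1 (4%, against 3.53%). The median was 0.17 to 0.28 when 1 array was left out.

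Of the 22 tested genes of endoplasmic reticulum folding, 1 passed as higher with troglitazone and 0 as lower, beside 6 and 0 of all 7962 genes. The median was -0.07 (-0.19 to 0.07 without 1 array). The gene that passed was Ero1a, whose product reoxidises protein disulphide isomerase during disulphide bond formation. Its brighter probe set had signals of 25194, 32555 and 27598 with troglitazone, against 15319, 14046 and 14974 with rosiglitazone. These did not overlap, and the log2 difference was 0.94 ± 0.14 (SE), or 1.92-fold (limma, adjusted p = 0.0132). A second probe set of Ero1a had signals of 12821, 21426 and 7839 with troglitazone, against 6780, 8105 and 3063 with rosiglitazone. There the groups overlapped across sets and separated within each set, with a log2 difference of 1.23 ± 0.20 (SE) (limma, adjusted p = 0.0369). From vehicle, the brighter probe set rose by 1.46 with troglitazone (limma, adjusted p = 3.05e-05), with rosiglitazone at 0.53 (adjusted p = 0.0851) and pioglitazone at 0.07 (adjusted p = 0.959). Hspa5, which encodes the chaperone BiP, stood at 0.81, with a 95% interval of 0.33 to 1.29, and did not pass (limma, adjusted p = 0.575).

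Npc1, whose product moves cholesterol out of late endosomes, had signals of 2958, 2538 and 4405 with troglitazone, against 1130, 1454 and 2005 with rosiglitazone. The arrays did not overlap, and Npc1 was 2.16-fold higher, a log2 difference of 1.11 ± 0.18 (SE) (limma, adjusted p = 0.038). From vehicle it rose by 1.20 with troglitazone (limma, adjusted p = 0.00219) and stood at 0.09 with rosiglitazone (adjusted p = 0.909). It was the only 1 of 21 tested genes of cholesterol synthesis and uptake that passed, beside 6 of all 7962 genes. The others of this list did not lean its way. The list's median was -0.23 (-0.29 to -0.09 when 1 array was left out), 14 of its genes were negative, and for 6 (28.6%) all troglitazone arrays lay below all rosiglitazone arrays, against 3.53% of all genes.

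No PPARγ target or lipid droplet gene passed the test between the drugs. In the list of adipogenic transcription factors and PPAR partners, 1 of 33 tested genes passed as higher, Ddit3, beside 0.0754% of all genes tested. Of 24 tested PPARγ target and lipid droplet genes 0 passed in limma in either direction, and the median was -0.16. At an unadjusted p under 0.05, 1 of the 24 was higher and 2 were lower, beside 307 higher and 283 lower of all 7962 genes. Of the 24, 18 had a 95% interval within 2-fold. All troglitazone arrays lay below all rosiglitazone arrays for 3 of the 24 (12.5%), against 3.53% of all genes, and above them for 1 (4.17%), against 4.67% of all genes. For the lipolysis list, which shares some of these genes, 3 of 8 (37.5%) lay wholly below. Acaa1b, a peroxisomal thiolase, had signals of 7057, 5959 and 10710 with troglitazone, against 6905, 5861 and 10944 with rosiglitazone. The arrays of each replicate number were nearly level, and the log2 difference was 0.01, with a 95% interval of -0.28 to 0.30. Angptl4, a secreted inhibitor of lipoprotein lipase, stood at -0.04 (-0.34 to 0.26), and Cidec, a lipid droplet protein, at -0.09 (-0.36 to 0.17).

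Against vehicle these genes moved with both drugs. Acaa1b rose by 1.96 with troglitazone (limma, adjusted p = 1.62e-06) and by 1.95 with rosiglitazone (adjusted p = 1.72e-06). Angptl4 rose by 1.12 with troglitazone (limma, adjusted p = 0.00034) and by 1.16 with rosiglitazone (adjusted p = 0.000511). Cidec rose by 1.07 with troglitazone (limma, adjusted p = 0.000219) and by 1.16 with rosiglitazone (adjusted p = 0.000234), so that all 3 stood close together for both drugs. Plin2, a coat protein of lipid droplets, had signals of 23756, 31400 and 21541 with troglitazone, against 17606, 18033 and 15083 with rosiglitazone. The groups did not overlap, and the log2 difference of 0.58, with a 95% interval of 0.28 to 0.88, did not pass (limma, adjusted p = 0.419). Chchd10, a mitochondrial intermembrane space protein, stood at 0.68 (limma, adjusted p = 0.576), and Pdk4, the kinase that inhibits pyruvate dehydrogenase, at 0.52 (adjusted p = 0.75). Without replicate 2 of rosiglitazone Pdk4 stood at 0.16.

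Apart from Plin2, Chchd10 and Pdk4, given above, and Pck1 and Retn, described below, the adipocyte genes named had log2 differences from -0.47 to 0.06. None of the adipocyte genes named passed. Adipoq (adiponectin) had signals of 35847, 28109 and 37172 with troglitazone, against 42690, 44756 and 50833 with rosiglitazone. These did not overlap, and the log2 difference was -0.46, with a 95% interval of -0.74 to -0.18 (limma, adjusted p = 0.59). The receptor gene Pparg stood at -0.46 (limma, adjusted p = 0.704), and fell from vehicle by 1.89 with troglitazone (adjusted p = 0.000133) and by 1.43 with rosiglitazone (adjusted p = 0.00204). Fasn, fatty acid synthase, stood at -0.47 (limma, adjusted p = 0.623), and fell from vehicle by 1.64 with troglitazone (adjusted p = 2e-05) and by 1.17 with rosiglitazone (adjusted p = 0.000525). Cebpa, an adipogenic transcription factor gene, was at -0.32 and Fabp4, a fatty acid binding protein gene, at -0.28. Lpl (lipoprotein lipase) was at 0.06, Cd36 (a fatty acid transporter) at -0.29, Scd1 (stearoyl-CoA desaturase) at -0.23 and Slc2a4 (GLUT4) at -0.28. Leaving out 1 array gave -0.44 to -0.007 for Scd1 and -0.45 to -0.11 for Slc2a4. In these bulk samples, fewer cells of a type and less RNA per cell cannot be told apart, and the part of the preadipocyte and fibroblast marker sum in these values was not tested.

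**Figure D4:**
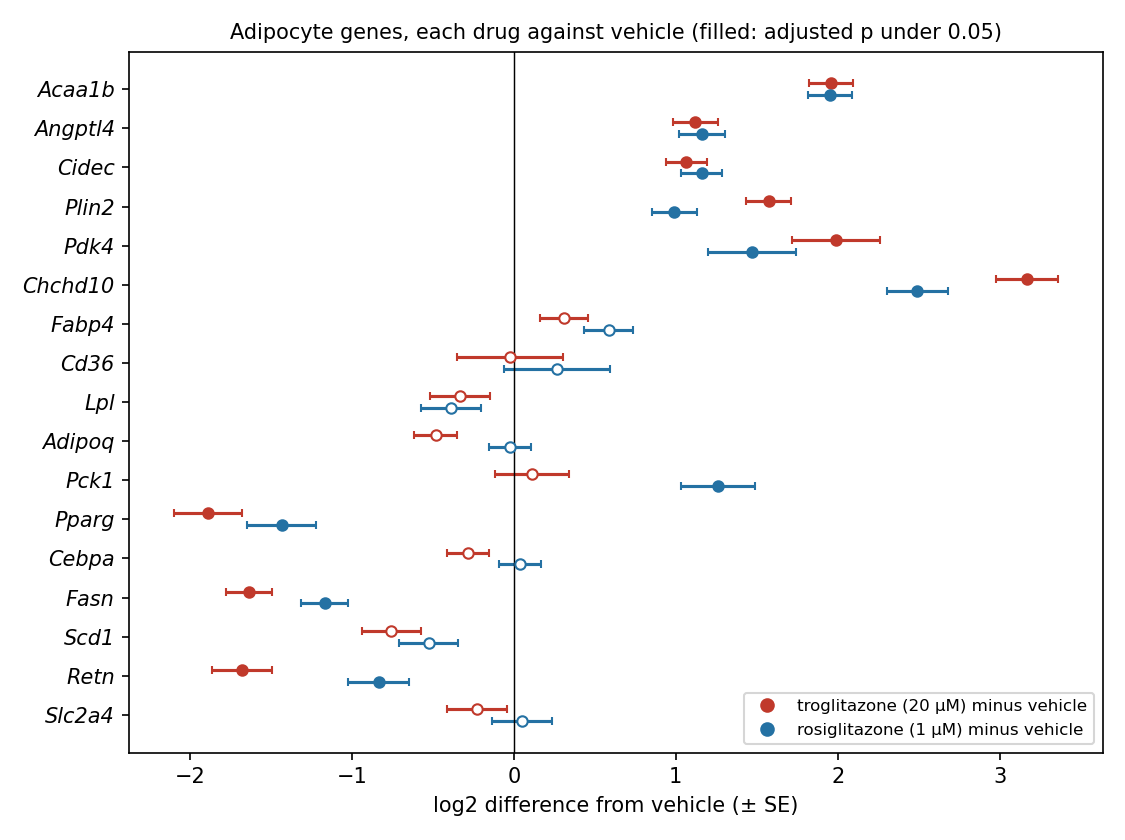
Log2 difference from vehicle (± SE) of 17 adipocyte genes with 20 µM troglitazone (red) and with 1 µM rosiglitazone (blue), filled where the adjusted p was under 0.05. Acaa1b, Angptl4 and Cidec lie at nearly the same value for both drugs, and Pck1 stands at 0.11 with troglitazone and 1.26 with rosiglitazone.

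Pck1 had the smallest p-value among the genes that were lower with troglitazone, and it did not pass. It encodes cytosolic phosphoenolpyruvate carboxykinase, an enzyme on the route to glycerol phosphate for triglyceride in adipocytes, and is a known PPARγ target. Its signals were 1696, 1914 and 1356 with troglitazone, against 3746, 4247 and 3013 with rosiglitazone. The groups did not overlap, and the log2 difference was -1.15 ± 0.23 (SE), with a 95% interval of -1.64 to -0.66 (limma, adjusted p = 0.14). From vehicle, with signals of 1718, 1016 and 1989, troglitazone stood at 0.11 (limma, adjusted p = 0.97), while Pck1 rose by 1.26 with rosiglitazone (adjusted p = 0.0102) and by 2.07 with pioglitazone (adjusted p = 0.000901). The next were Anxa8, an annexin gene, at -0.82 (limma, adjusted p = 0.276), Retn (resistin) at -0.84 (adjusted p = 0.287) and Wfdc21, a gene of the whey acidic protein family, at -0.89 (adjusted p = 0.316). All 3 had troglitazone arrays below all rosiglitazone arrays. A probe set of Naalad2, a peptidase gene, had signals of 36.4, 53.9 and 29.6 with troglitazone, all under the floor, against 232.5, 235.3 and 235.1 with rosiglitazone, and did not pass (limma, adjusted p = 0.419); its other probe sets stood at -0.39 and -0.09 on the log2 scale.

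The lists of oxidative phosphorylation and mitochondrial fatty acid oxidation had medians below 0, and no gene of them passed. Of 61 tested oxidative phosphorylation genes 53 had a negative difference, the median was -0.20, and 0 passed in limma. At an unadjusted p under 0.05, 11 of the 61 were lower and 0 higher, beside 283 lower and 307 higher of all 7962 genes. Only 2 of the 61 (3.28%) had all troglitazone arrays below all rosiglitazone arrays, near the 3.53% of all genes. Against vehicle, 6 of these 61 genes rose with troglitazone, where 0.967% of all genes did so, and 13 rose with rosiglitazone, where 0.98% of all genes did so. Of 20 tested genes of mitochondrial fatty acid oxidation 17 were negative, with a median of -0.23 (-0.28 to -0.15 without 1 array), and 3 (15%) lay wholly below. Pyruvate entry and citric acid cycle genes did not lean as clearly. Of 30 tested, 17 were negative and 13 positive, and the median was -0.05 beside -0.01 over all genes. That median changed sign in 3 alternatives. For the annexin, gelsolin and actin cytoskeleton list the median was -0.20 (-0.35 to -0.08 without 1 array), and 7 of 37 (18.9%) lay wholly below. The smooth muscle marker sum was 474 to 868 on troglitazone arrays and 682 to 1306 on rosiglitazone arrays, with overlap. It is not separate from that list, which also holds the markers Acta2 (-1.65), Tagln (-0.52) and Cnn1 (-0.34). The other tested smooth muscle markers, Des and Myh11, stood at 0.10 and -0.005. The part of these markers in the list was not tested.

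**Figure D5:**
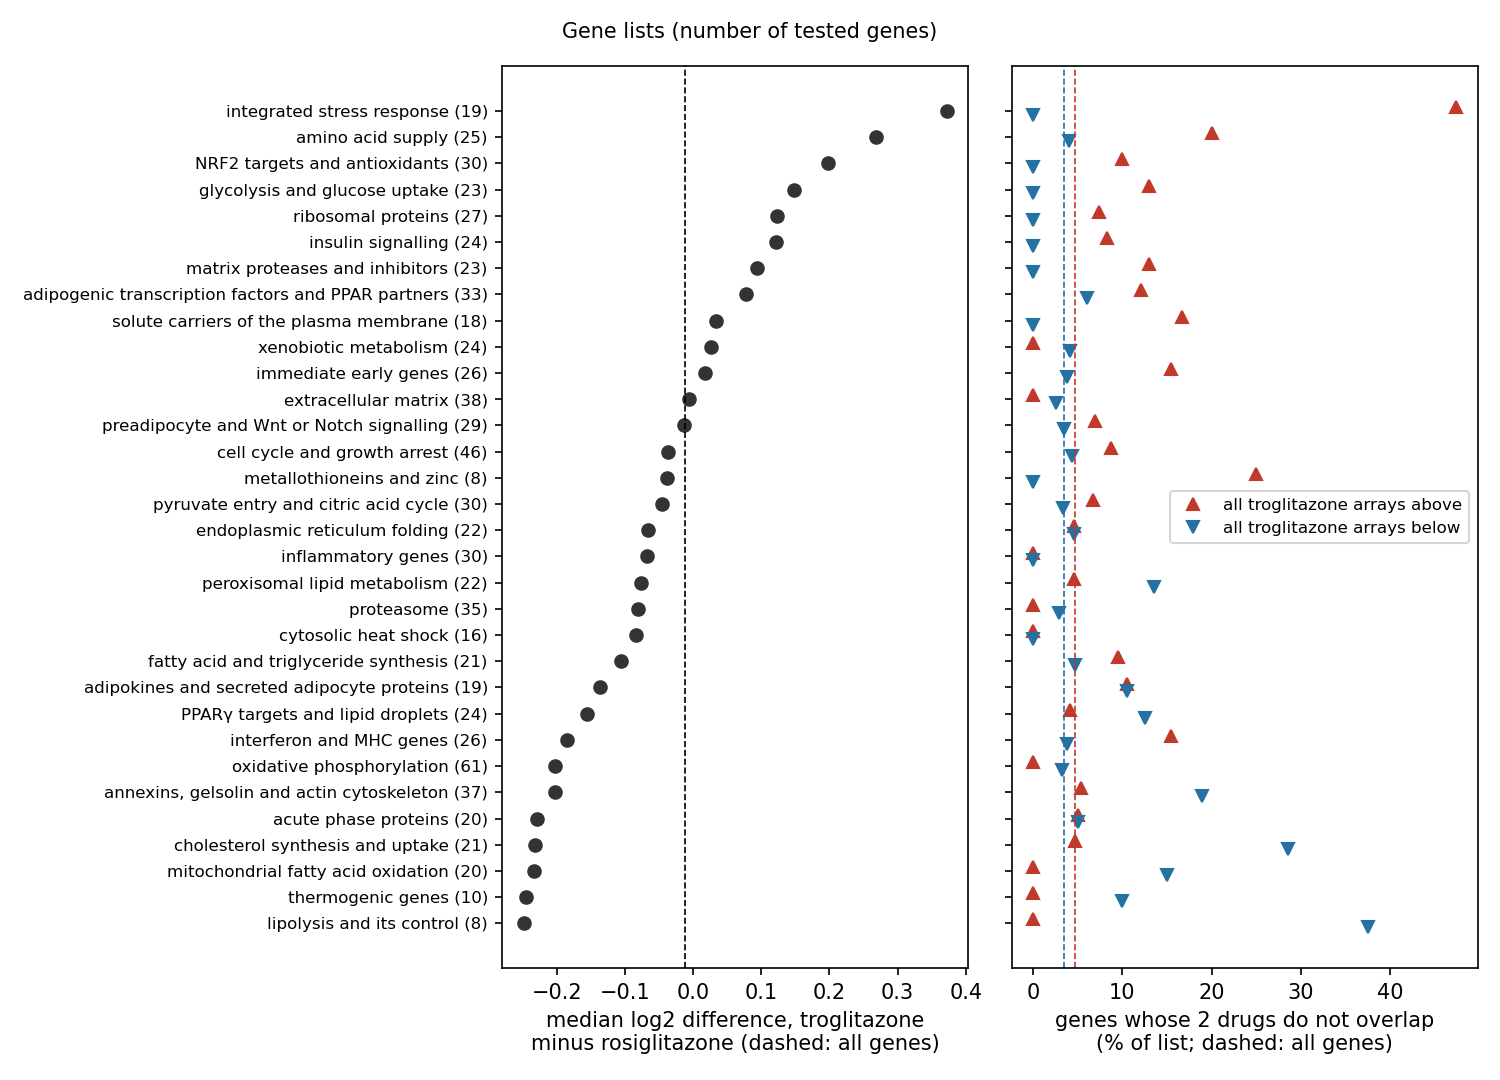
Median log2 difference, troglitazone minus rosiglitazone (left), and percent of genes whose troglitazone arrays all lay above (red) or all below (blue) the rosiglitazone arrays (right), for 32 gene lists with the number of tested genes. Dashed lines give the values over all tested genes (4.67% above, 3.53% below); the integrated stress response stands at a median of 0.37 with 47.4% above.

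Pioglitazone was given at the same 20 µM as troglitazone, so this pair could be compared at a matched dose, with 3 and 2 arrays. In the same fit 4 probe sets passed (0.0341% of those tested), 3 higher and 1 lower with troglitazone, and they belong to 3 of the genes above. Mt2 was higher by 1.12 on the log2 scale (limma, adjusted p = 0.00851), Ero1a by 1.40 for its brighter probe set (adjusted p = 0.00148) and by 2.31 for its other one (adjusted p = 0.00059), and Pck1 was lower, at -1.96 (adjusted p = 0.00851). Ddit3 stood at 0.90 (limma, adjusted p = 0.146), Npc1 at 0.95 (adjusted p = 0.257), Trib3 at 0.61 and Mt1 at 0.59 (adjusted p = 0.338 each), and these did not pass. Both contrasts use the same troglitazone arrays, pioglitazone has no array in set 2, and pioglitazone replicate 2 had a beta-actin 3′ to 5′ ratio of 4.86, the highest of the series.

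Support for the 6 genes differed when single arrays were left out. Mt2, Trib3 and Ddit3 passed in all 11 fits that left out 1 array. Without rosiglitazone replicate 2, the array that stood apart, their log2 differences were 1.39 for Mt2, 1.39 for Trib3 and 1.28 for Ddit3. Mt1 did not pass without troglitazone replicate 1 or 2 or without rosiglitazone replicate 1, 2 or 4, where its adjusted p was 0.13 to 0.227 and its log2 difference 0.90 to 0.97. Ero1a did not pass without troglitazone replicate 2 or 4 or without rosiglitazone replicate 1, 2 or 4, with adjusted p of 0.099 to 0.34 and log2 differences of 0.85 to 1.02. Npc1 passed in 1 of the 11, without vehicle replicate 1, and otherwise had adjusted p of 0.0593 to 0.562 and log2 differences of 0.99 to 1.20. Pck1 passed without vehicle replicate 2 (limma, adjusted p = 0.0324).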

How the data were processed

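RNA of 11 samples of 3T3-L1 cells was hybridised to single-colour oligonucleotide arrays, 1 array a sample. The deposited values are signal intensity on a linear scale (0.4 to 224475), and from the values the authors had scaled each array so that the mean after trimming 2% at each end was 500.289 to 500.433; the software and probe summary behind them are not given in the sources at hand. Depth has no meaning for arrays, and their number limits the precision.

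Groups and sets came from the sample titles. Values under 73.7, the 25th percentile of all values, were raised to it (20.99% of tested values) and log2 was taken. limma 3.58.1 in R 4.3.3 fitted a mean for each group plus the set on all 11 arrays (6 residual degrees of freedom, intensity trend, Benjamini-Hochberg over tested probe sets, two-sided, threshold 0.05). Drug differences are troglitazone minus rosiglitazone; the contrast with pioglitazone was added to the same fit after values had been seen. Of the non-control probe sets, 10833 named 1 gene in the platform annotation, 396 several and 1193 none. Each gene was represented by its probe set of highest mean signal.

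The text names genes that passed, the 5 smallest p-values in a direction where fewer passed, members of the stress response and metallothionein lists, and a list of adipocyte genes. Tcf12 and Mmp11 are named as genes near the threshold outside the stress response list. The groups compared, the members and the gene lists were chosen with earlier results of these data known. Promoters came from the RefSeq table for GRCm38.p6. The fit was tested on simulated data. Alternatives changed the normalisation, floor, filter, set term, trend and arrays used. Replicate numbers are shared by the groups, but deviations of same-numbered troglitazone and rosiglitazone arrays correlated at 0.0932, 0.0901 and 0.362, not all over 0.1, so the numbers were not taken as pairs.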

Additional observations from a re-analysis of the deposited data

How the results depend on the processing

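The signs of the 6 differences held under all 24 alternatives, and their calls did not. Mt2, Trib3 and Ddit3 passed in 19 alternatives, Mt1 and Ero1a in 13 and Npc1 in 5. The count of 7 probe sets became 4 (3 higher) with no filter on dim probe sets and 0 with no set term, with set 1 alone, with no intensity trend, with the 6 arrays of the drugs alone (706 at an unadjusted p under 0.05) and with rosiglitazone replicate 2 and pioglitazone replicate 2 left out together, an alternative chosen after seeing the data (765 at an unadjusted p under 0.05). It was 3 to 6 when 1 array was left out. The cause of these losses was not tested. With the replicate number as a block in place of the set, 5 probe sets passed, and only Npc1 and the second probe set of Ero1a were lost (Npc1, adjusted p = 0.0631). Median centring brought Ppp1r15a past the threshold (adjusted p = 0.0366). The median of the stress response list was 0.37 to 0.52 over fits without 1 array, and that of metallothioneins and zinc -0.17 to 0.15. Genes near 0 changed sign without passing: Acaa1b to -0.0034 with quantile normalisation and -0.0065 with the actin ratio as covariate; Cidec to 0.0079 and Angptl4 to 0.064 with median centring; and, with both replicate 2 arrays out, Lpl to -0.11, Acaa1b to -0.049 and Angptl4 to 0.026. Over fits without 1 array, Acaa1b ran from -0.077 to 0.0805, Cdkn1a from -0.00887 to 0.114, Lpl from -0.114 to 0.19 and Angptl4 from -0.0893 to 0.026. Intensity over background on these arrays is not given by the files, so dim probe sets near the floor are limited most.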

Other observations

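Several further gene groups showed no call in limma between the drugs. Of 23 tested genes of glycolysis and glucose uptake 17 were higher with troglitazone than with rosiglitazone by sign, with a median log2 difference of 0.15 (0.09 to 0.20 when 1 array was left out) and 3 at an unadjusted p under 0.05. Against vehicle, 9 of the 23 rose with troglitazone, where 0.967% of all genes did so, and 4 with rosiglitazone, where 0.98% of all genes did so; both share the vehicle arrays. Of 30 tested NRF2 target and antioxidant genes, which guard against oxidants and electrophiles, 4 were higher and 1 lower at an unadjusted p under 0.05, and the median was 0.20 (0.11 to 0.23 without 1 array). Over all 7962 genes tested, 307 were higher and 283 lower at that unadjusted p, the background for this list and for glycolysis. Hmox1 (heme oxygenase 1) stood at 0.59, with signals of 3934, 2531 and 5119 with troglitazone, against 1985, 3042 and 2468 with rosiglitazone, which overlapped (limma, adjusted p = 0.702), and its log2 difference was 0.25 to 0.89 when 1 array was left out. Cdkn1a, the p21 cell cycle inhibitor gene, stood at 0.05 with a 95% interval of -0.32 to 0.42.

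Groups with medians near that of all genes included cytosolic heat shock (-0.08, 16 genes), inflammatory genes (-0.07, 30 genes), extracellular matrix (-0.01, 38 genes) and cell cycle and growth arrest (-0.04, 46 genes). Of the inflammatory genes, 0 lay wholly above on the troglitazone arrays, against 4.67% of all genes, and 0 wholly below, against 3.53%. Over all 32 lists the median ran from -0.25 for lipolysis to 0.37 for the integrated stress response.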
